A study of Mus musculus with 42 samples.

Results

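The cytosolic ribosomal protein genes were followed in spleen B cells, T cells and the rest of the spleen cells, here Non-BT cells, from mice that differed in Psmb8 genotype and in age. They were chosen by name: protein-coding genes whose symbol starts with Rpl or Rps and a digit, with Rplp0, Rplp1, Rplp2 and Rpsa, and without S6 kinase genes and pseudogenes. The rule found 86 genes (52 with an Rpl prefix, which includes the Rplp symbols, and 34 with an Rps prefix) among 47719 listed genes. It used no measured value. It also took in Rpl7l1, whose product acts in the nucleolus, and Rps19bp1, whose product binds Rps19 and is not a part of the ribosome, and it missed the ribosomal proteins Fau and Rack1, which are given beside the others below.

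The mice were untreated and were Psmb8 +/+, called wild type below, or Psmb8 G201V/G201V, called homozygous, which is a substitution in the β5i catalytic subunit of the immunoproteasome, and were labelled Young or Old with no age in weeks. Each spleen fraction had 4 young wild-type, 4 young homozygous, 3 old wild-type and 3 old homozygous libraries, 42 in 12 groups. All groups share the tissue, the lack of treatment and the library kits, and no Cre or transgene is named. The genotype field of the 3 libraries of the young wild-type sample numbered 4 reads Psmb9 +/+, although their titles call them wild type. The labels do not say how the fractions were separated or whether each number is a separate animal, so p-values measure the spread between these samples.

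The eukaryotic ribosome joins a small subunit, with the Rps proteins, and a large subunit, with the Rpl proteins, around ribosomal RNA. Its protein mRNAs are among the most abundant of the cell, and most start with a cytosine and a run of pyrimidines, the 5′ terminal oligopyrimidine (TOP) motif, through which mTOR signalling and Larp1 tune their translation. Lymphocytes raise ribosome production when they are activated and grow.

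Values are FPKM, fragment counts scaled to transcript length and to the mapped fragments of the library. They are relative to a library, and their sum ran from 631620 to 1183720 FPKM over the libraries. Scaling by length is meant to make genes comparable, which was not checked here. The depth estimated from the smallest steps of FPKM was 9443960 to 25710500 fragments per library. The 10 B cell markers summed to 6633 FPKM or more in every B library and to 222 FPKM or less in every other library, and the 10 T cell markers to 3444 FPKM or more in every T library. Neutrophil markers summed to 9717 to 55030 FPKM in Non-BT cells. Psmb8 itself was read at 525 to 968 FPKM over the 42 libraries, and its level does not check the substitution. Immunoglobulin transcripts made up 12.7 to 29.4% of the summed FPKM of B libraries, 1.11 to 44.6% of T libraries and 1.04 to 44.2% of Non-BT libraries, with the highest T and Non-BT values in the old animals numbered 2.

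The starts of some of these genes show the TOP motif directly. RefSeq start windows on GRCm38.p6 were matched by symbol for 66 of the 86 genes. A cytosine followed by at least 4 pyrimidines (C or T), read on the transcribed strand and beginning exactly at the annotated start, was found for 14 of the 66 (21.2%) and for 813 of all 27025 genes in the table (3.01%). An annotated start can lie a few bases from the one a cell uses, so a window without the run says only that these letters are not there. Rps7, Rps24 and Rpl36al, which are named below, lack the run at every matched start, and Rpl17 and Rps14 are not among the 66. Windows of 30 bases, from 10 before to 19 after the first transcribed base, are shown for some genes named below. The pyrimidine run is in capitals, and genes with it are more frequent among those shown than among the 66. The first 6 have the run, and Rps27l, Rpl22l1, Rplp0 and Rpl12 do not.
Rps27 (chr3:90213629-90213658, minus strand): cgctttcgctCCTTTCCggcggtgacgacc
Rps27rt (chr9:114982720-114982749, minus strand): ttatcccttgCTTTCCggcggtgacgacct
Rpl15 (chr14:18270967-18270996, minus strand): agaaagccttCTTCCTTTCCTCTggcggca
Rps6 (chr4:86857348-86857377, minus strand): gaagtcgggcCTCTTTTTCgtgacgcctcc
Rps18 (chr17:33955646-33955675, minus strand): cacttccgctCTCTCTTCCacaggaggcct
Rplp2 (chr7:141447641-141447670, plus strand): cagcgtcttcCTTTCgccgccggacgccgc
Rps27l (chr9:66946076-66946105, plus strand): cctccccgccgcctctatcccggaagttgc
Rpl22l1 (chr3:28805498-28805527, plus strand): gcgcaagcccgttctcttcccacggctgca
Rplp0 (chr5:115559457-115559486, plus strand): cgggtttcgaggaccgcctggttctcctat
Rpl12 (chr2:32961702-32961731, plus strand): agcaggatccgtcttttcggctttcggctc

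Nearly all of the genes were strongly expressed in every library. Of the 86, 83 were above 10 FPKM in all 42 libraries and 79 were above 100 FPKM in all of them. In the 12 young wild-type libraries the highest was Rps19, a small-subunit protein mutated in human Diamond-Blackfan anaemia, with a mean of 4491 FPKM. Rps27 followed at 4080 FPKM (4079.8), then Rps18 at 1884, Rpl13 at 1802 and Rps14 at 1774 FPKM. The lowest were Rpl10l, Rpl3l, Rpl39l, Rps19bp1 and Rps27rt. Rpl10l, the testis copy of Rpl10, was listed at 0 in every library. Rpl39l, also best known from testis, was listed at 0 in 15 libraries and never passed 3.64 FPKM, and Rpl3l, the heart and skeletal muscle copy of Rpl3, was listed at 0 in 18. The order of the levels was nearly the same in the 3 fractions: across the 83 genes never at 0, Spearman's rho of the mean levels was 0.988 between B and T cells, 0.969 between B and Non-BT cells and 0.957 between T and Non-BT cells, a description over genes that share libraries.

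Together the 86 genes made up 8.49% ± 1.06 (SD, n = 14) of the summed FPKM of B cells, 10.999% ± 3.15 of that of T cells and 5.08% ± 0.950 of that of Non-BT cells. With immunoglobulin transcripts left out of the total the shares were 10.5% ± 0.933, 12.4% ± 2.098 and 5.77% ± 0.424. The summed level ran from 56100 (56099.7) through a median of 65970 (65970.4) to 83140 FPKM in B cells, from 54947 through 78690 to 122363 FPKM in T cells, and from 32925 through 38781 to 44944 FPKM in Non-BT cells. No Non-BT library reached the lowest lymphocyte library, while B and T cells overlapped. The titles do not state that fractions with the same age, genotype and number came from one animal. If they did, B cells were above Non-BT cells in 14 of 14 and T cells above Non-BT cells in 14 of 14. T cells were above B cells in 10 of 14, which were 7 of the 8 young and 3 of the 6 old. In bulk samples, less of an RNA per cell and fewer cells that hold it cannot be told apart.

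**Figure D1:**
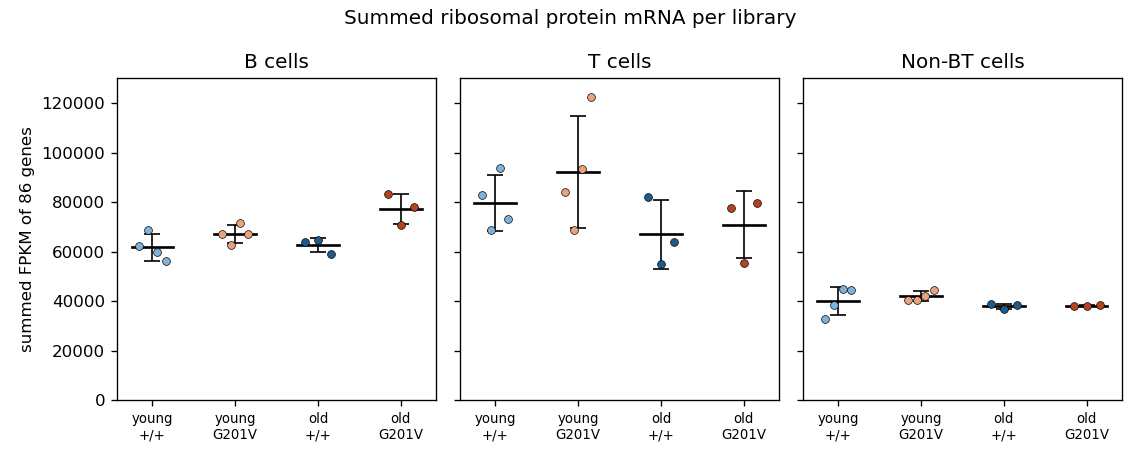
Summed FPKM of the 86 genes (vertical axis) in each library, by spleen fraction and by age and genotype. Points are libraries, long bars group means and whiskers 1 SD. Non-BT cells lie at 32925 to 44944 FPKM, below every B and T library, and the 3 old homozygous B libraries lie above the 3 old wild-type ones.

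Ribosomal protein mRNA was at a higher FPKM in B and in T cells than in Non-BT cells, for almost every gene. Amounts per cell were not measured. Rps27, a small-subunit protein with a zinc finger, ran from 3681 through a median of 4950 (4949.98) to 6519 FPKM in B cells, from 3510 (3510.1) through 5054 to 7329 FPKM in T cells, and from 1408 through 1885 to 2595 FPKM in Non-BT cells. Both lymphocyte ranges lay wholly above the Non-BT range. On the log2(FPKM + 1) scale Rps27 was higher by 1.39 (SE 0.0903, adjusted p = 8.2e-16) in B cells and by 1.37 (adjusted p = 1.69e-15) in T cells, by limma with Benjamini-Hochberg adjustment over 15143 genes. Of the 85 genes tested, 80 were higher and 2 lower in B than in Non-BT cells, so that 96.5% were called against 67.5% of all genes tested. The median difference was 0.67, against -0.06 over all genes. For T minus Non-BT cells, 81 were higher and 3 lower, 98.8% against a background of 63.2%, with a median of 0.90 against -0.04. Without any overlap, 67 were above in B cells (5.97% of all genes were) and 65 in T cells (5.82% of all genes).

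Rpl12, a large-subunit protein at the base of the P stalk, was at 153 to 251 FPKM in Non-BT cells, at 430 to 675 FPKM in B cells and at 476 to 1254 FPKM in T cells. Its log2 difference was 1.27 (SE 0.0929, adjusted p = 2.02e-14) in B and 1.77 (adjusted p = 3.36e-18) in T cells. Rpl13a, a large-subunit protein that in human monocytes also serves in a translation-silencing complex, was higher by 1.19 (adjusted p = 5.88e-17) in B and 1.31 (adjusted p = 5.75e-18) in T cells. The other leaders were Rps20 (1.119, adjusted p = 3.3e-13) and Rps19 (1.06, adjusted p = 4.89e-13) in B cells, and Rps15a (1.31, adjusted p = 3.08e-15) and Rps18 (1.28, adjusted p = 4.44e-16) in T cells. All of these are small-subunit proteins. Rps27rt, a copy of Rps27 on chromosome 9, was higher by 1.503 (adjusted p = 7.34e-13) and 1.48 (adjusted p = 1.38e-12), but 91.1% of the 50-base windows of its transcript are also in Rps27 transcripts, so its reads cannot be separated well from those of Rps27.

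**Figure D2:**
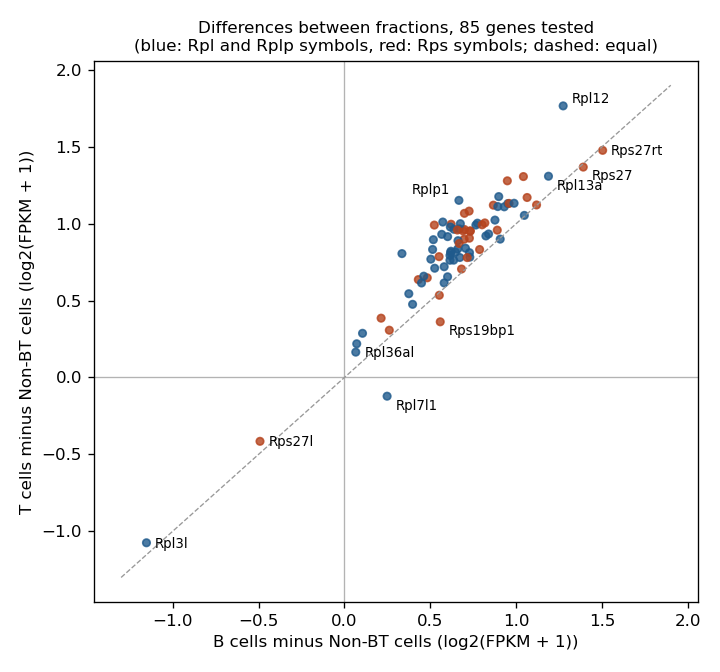
Difference of log2(FPKM + 1) from Non-BT cells, in B cells (horizontal axis) and T cells (vertical axis), for the 85 tested genes as means over the 4 age and genotype groups. Most points lie in the upper right and above the dashed line of equal differences, and Rpl3l and Rps27l lie in the lower left at -1.15 and -1.07, and at -0.49 and -0.41. The axes share the Non-BT libraries.

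Genes with other known roles followed the same pattern at various sizes. Rps6, the substrate of S6 kinases, had median levels of 632 FPKM in B, 882 FPKM in T and 410 FPKM (409.9) in Non-BT cells, with log2 differences from Non-BT cells of 0.62 in B cells (adjusted p = 1.25e-11) and 0.996 in T cells (adjusted p = 5.17e-17). Rpl5 and Rpl11, which bind Mdm2 together with an extra-ribosomal ribosomal RNA, were higher by 0.57 and 0.62 in B cells and by 1.01 and 0.82 in T cells, all of them called. Rpsa, mutated in human isolated congenital asplenia, was higher by 0.73 in B and 1.08 in T cells, and Rpl41, the shortest of these proteins, by 0.91 and 0.90. Rps27a, made as a fusion with ubiquitin, differed least among these genes, by 0.21 (adjusted p = 0.018) in B and 0.39 (adjusted p = 7.31e-05) in T cells. Rps26, another anaemia gene in humans, was higher by 0.68 and 0.71.

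The P stalk, formed by Rplp0, Rplp1 and Rplp2, recruits translation factors to the ribosome. Rplp0 ran from 621 through a median of 746 to 825 FPKM in Non-BT cells, from 820 (819.7) through 906 to 1166 FPKM in B cells and from 993 through 1395 to 2027 FPKM in T cells. T cells were above every Non-BT library, while B and Non-BT cells overlapped. All 3 stalk genes were higher in B cells (0.34, 0.67 and 0.57, in the order named) and in T cells (0.81, 1.15 and 0.93) than in Non-BT cells, with adjusted p of 5.92e-05 or less. They were also lower in B than in T cells, by log2 differences of -0.47 (adjusted p = 3.54e-07), -0.49 (adjusted p = 1.37e-06) and -0.36 (adjusted p = 5.61e-05).

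Between B and T cells the share of genes called was no larger than over the whole table. Of 85, 2 were higher and 41 lower in B cells, 50.6% against 53.2% of all genes tested, with a median of -0.18 against -0.04 over all genes. Beside Rplp1 and Rplp0, the lowest in B cells were Rpl12 (-0.49, adjusted p = 2.81e-05), Rps23 (-0.47, adjusted p = 5.72e-06), Rpl5 (-0.44, adjusted p = 1.58e-05) and Rpl18 (-0.38, adjusted p = 2.62e-05). The pair that was higher in B cells were the genes outside the mature ribosome, Rpl7l1 at 57.7 to 73.5 FPKM in B and 43.7 to 60.9 FPKM in T cells (0.37, adjusted p = 1.51e-07), and Rps19bp1 at 21.5 to 40.6 and 21.7 to 30.8 FPKM (0.20, adjusted p = 0.0263). The count fell to 20 (2 higher and 18 lower) when only the libraries in the lower range of library numbers were used, which hold all old animals and the young ones numbered 1 and 2.

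The median B to T difference varied between the age and genotype groups. The median over the 83 genes never at 0 was -0.35 in young wild-type and -0.39 in young homozygous animals, -0.10 in old wild-type and 0.11 in old homozygous animals. Tested as a difference (old minus young, limma, added after these medians were seen), 84 of 85 genes had a positive value with a median of 0.40, 66 were at an unadjusted p under 0.05 (2068 of all 15143 genes were), and 1 was called, 1.18% against 0.786% of all genes. The called gene was Rps14 (chr18:60747098-60778546), a small-subunit protein tied to human 5q- syndrome. Its B cell values were 1711, 1961, 1485 and 1589 FPKM in young wild-type, 1777, 1592, 1862 and 1756 FPKM in young homozygous, 1988, 1866 and 1733 FPKM in old wild-type and 2718, 2190.28 and 2363 FPKM in old homozygous animals. In T cells they were 2628, 2044, 2880 (2880.2) and 2071 FPKM, then 2509, 2279.9, 2896 and 3265 FPKM, then 2499, 1651 and 1972 FPKM, and 2331, 1663 and 2362 FPKM in the same order of groups. The difference was 0.62 (adjusted p = 0.0284). Without both old animals numbered 2, whose T libraries held the most immunoglobulin transcripts, it was 0.50 (adjusted p = 0.169) and no gene was called. Nor was any called with the lower range of library numbers only. With the animal label as a replicate block 5 genes were called.

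A few genes differed from this pattern. Rps27l, the paralog of Rps27 known as a target of p53, was at 107 to 222 FPKM in B cells, 122.6 to 257 FPKM in T cells and 176 to 266 FPKM in Non-BT cells, and was lower in both lymphocyte fractions (-0.49, adjusted p = 8.21e-06, and -0.41, adjusted p = 0.000102). As a percentage of Rps27 it was 3.25% ± 0.837 in B libraries, 3.41% ± 0.886 in T libraries and 11.6% ± 2.70 in Non-BT libraries (SD, n = 14 each), and the Non-BT range of 8.70 (8.695) to 18.9% did not meet the B cell range of 2.103 to 4.73% or the T cell range of 2.14 to 5.47%. No 50-base window of Rps27l transcripts is in Rps27 transcripts, so exact reads of that length could be told apart. How reads were divided within this pair is not given. Rpl36al had medians of 260 (260.1), 286 and 249 FPKM in B, T and Non-BT cells. Its parent Rpl36a followed the family, with medians of 308, 383 and 164 FPKM. Rpl36al was therefore 85.6% ± 6.82 of Rpl36a in B libraries, 78.2% ± 16.5 in T libraries and 151% ± 15.7 in Non-BT libraries, where each library was above every B and T library. Rpl10, which sits near the catalytic centre of the large subunit, did not differ beyond its spread between B and Non-BT cells (0.07, adjusted p = 0.429), and nor did Rpl36al (0.07, adjusted p = 0.291). In T cells both were called higher than in Non-BT cells, Rpl10 by 0.16 (adjusted p = 0.046) and Rpl36al by 0.22 (adjusted p = 0.00164), and Rpl7l1 was called lower (-0.12, adjusted p = 0.0394).

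The remaining paralogs gave other patterns. Rpl22l1, the paralog of Rpl22, a large-subunit protein needed for T cell development in mice, was 72.2% ± 12.4 of Rpl22 in B libraries, 74.98% ± 10.9 in T libraries and 68.9% ± 8.40 in Non-BT libraries, ranges that overlapped. In T cells the percentages of Rpl22 were 87.9 ± 4.10 (82.7 to 92.2, n = 4) in young wild-type and 69.4 ± 6.16 (63.8 to 77.4, n = 4) in young homozygous animals, without overlap, and 74.9 ± 7.96 and 65.3 ± 9.56 in old ones (n = 3 each), with overlap. In young T cells neither Rpl22l1 nor Rpl22 was called by limma (adjusted p = 0.846 and 0.77). In B and Non-BT cells the genotypes overlapped at both ages. The means, wild type first, were 70.4 and 63.6 in young B cells and 76.7 and 81.6 in old B cells. In Non-BT cells they were 69.6 and 63.5 in young and 76.4 and 67.8 in old animals. How often ratios of other genes lack overlap was not examined. These ratios were not tested. Rpl3l was listed at 0 in most B libraries and reached 0.186 FPKM there and 0.566 FPKM in T cells, but was at 0.428 to 2.64 FPKM in Non-BT cells, 0.0755 to 0.418% of Rpl3. It was called lower in B (-1.15, adjusted p = 1.21e-11) and in T cells (-1.07, adjusted p = 7.74e-11), at levels where the added 1 FPKM shrinks a log2 difference.

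**Figure D3:**
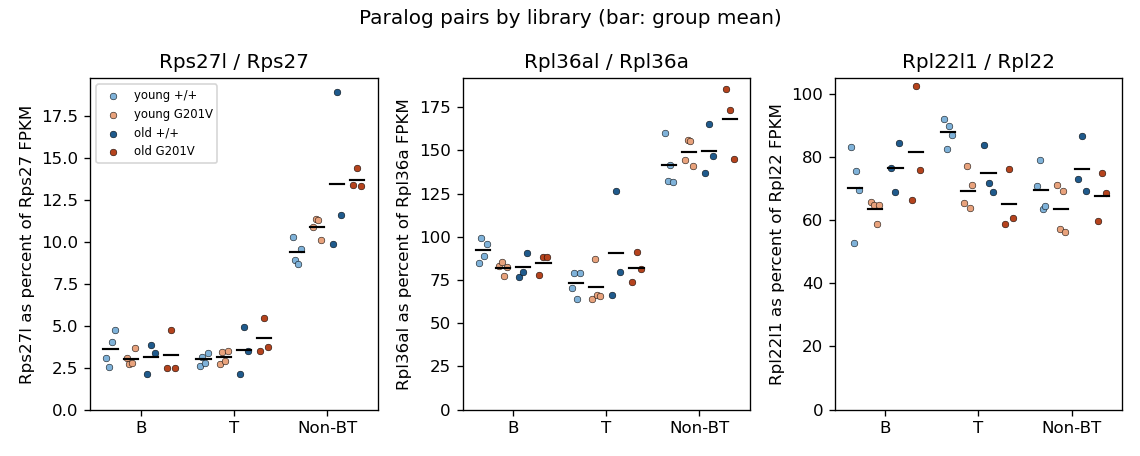
Level of Rps27l, Rpl36al and Rpl22l1 as a percentage of the FPKM of Rps27, Rpl36a and Rpl22 (vertical axes, from 0) in each library, by fraction, age and genotype. Points are libraries and bars group means. The first pair of ratios is higher in every Non-BT library than in any B or T library, and the Rpl22l1 ratio overlaps between fractions.

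Other genes of the ribosome supply line also differed between the fractions. Rack1, a scaffold protein of the small subunit, had means of 573 ± 72.7 FPKM in B, 707 ± 288 FPKM in T and 374 ± 31.6 FPKM in Non-BT cells (SD, n = 14 each), and was higher than in Non-BT cells by 0.62 in B (adjusted p = 4.64e-07) and 0.83 in T cells (adjusted p = 1.58e-09). Fau, whose product includes a small-subunit protein, was higher by 0.50 in B (adjusted p = 4.84e-07) and 0.31 in T cells (adjusted p = 0.000618). Of 18 translation factors and similar genes of the TOP class, 15 were higher in B cells, and 14 were higher and 2 lower in T cells; Eef1g, an elongation factor subunit, had 259 ± 22.4, 279 ± 51.0 and 143 ± 9.56 FPKM. Of 30 ribosome biogenesis factors, 28 were higher in B and 29 in T cells with none lower, such as Tsr1, a small-subunit assembly factor (25.2 ± 4.46, 24.9 ± 3.33 and 12.5 ± 1.86 FPKM). Of 11 genes of RNA polymerase I transcription, 10 were higher in each, such as Polr1d (81.5 ± 7.40, 82.5 ± 8.79 and 57.0 ± 4.23 FPKM). The 78 mitochondrial ribosomal protein genes differed less: 51 higher and 5 lower in B cells with a median of 0.24, and 49 higher and 3 lower in T cells with a median of 0.24. Higher calls made up 28.9% and 28.3% of all genes in these comparisons, and lower calls 38.6% and 34.9%. Of 12 regulators of TOP mRNAs and ribosome genes, 1 was higher and 3 lower in B cells, and 1 was higher and 4 lower in T cells. Eif4ebp1, a repressor of cap-dependent translation, was lower in both (46.5 ± 6.61 in B, 31.2 ± 7.20 in T and 129 ± 19.0 FPKM in Non-BT cells; adjusted p = 4.99e-18 and 8.27e-22). Myc, an activator of ribosome genes, was higher in both (101 ± 39.5, 78.6 ± 11.1 and 51.2 ± 7.58 FPKM; adjusted p = 4.58e-08 and 6.73e-05). The other lower calls were Mycn and Rptor in B cells and Mycn, Larp4 and Mtor in T cells. Proliferation markers were lower in both, 10 of 10 in B and 9 of 10 in T cells. Their part in the differences of the ribosomal protein genes was not tested.

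The genotype comparison asks which genes the G201V change alters in each fraction. In none of the 6 comparisons of homozygous with wild-type animals was a ribosomal protein gene called by limma, while between 0 and 1.69% of all genes were. At an unadjusted p under 0.05 were 12 of 83 ribosomal protein genes in young B cells, beside 1152 of all 12269 genes, and 62 of 83 in old B cells, beside 1237 of 12269. In T cells 0 of 84 were at that level in young animals (1144 of all 13193 genes) and 0 of 84 in old ones (502 of 13193). In Non-BT cells it was 1 of 84 in young (1891 of all 13587 genes) and 0 of 84 in old animals (785 of 13587). In old B cells, where the called share of all genes was 0.00815%, every one of the 83 tested genes had a higher mean in homozygous animals, with a median of 0.30 on the log2 scale against -0.04 over all genes, and 64 were above without overlap (6.04% of all genes were). The smallest adjusted p was 0.23.

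The 3 genes with the smallest p in old B cells were Rpl17, Rps7 and Rpl15. Rpl17 (chr18:74998558-75003381), at the exit of the peptide tunnel, was at 482, 478 and 454 FPKM in the old wild-type and at 659.8, 564 and 648 FPKM in the old homozygous libraries, a log2 difference of 0.40 (SE 0.0860, adjusted p = 0.23). Listed pseudogene copies of Rpl17 add up to 9.25% of its level. Rps7, which also binds Mdm2, was at 455, 468 and 426 FPKM and at 632, 541 and 599 FPKM (0.39, adjusted p = 0.264). Rpl15 was at 296, 295 and 276 FPKM and at 361, 352 and 379.5 FPKM (0.33, adjusted p = 0.27). In each of the 3 genes the homozygous libraries were all above the wild-type ones, and old homozygous replicate 2 was the lowest of them.

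The genes moved largely together across B libraries, so counts of genes are not independent. Over the 14 B libraries the median SD of log2(FPKM + 1) was 0.17, and 0.09 after each library's own median was subtracted. The summed level adds up the same genes in the same libraries, so its split is not separate evidence. It was 64028, 64845 and 59291 FPKM in old wild-type and 83140, 71006 and 78039 FPKM in old homozygous B libraries. As a share without immunoglobulin transcripts it was 9.88% ± 0.290 and 11.8% ± 0.711 (SD, n = 3 each), ranges of 9.55 to 10.1% and 10.98 to 12.4% that did not meet. As a share of the whole library the groups overlapped, at 7.99, 7.61 and 7.08% in old wild-type and 10.76, 7.75 and 9.69% in old homozygous libraries. The median difference was between 0.25 and 0.33 when any 1 of the 14 B libraries was left out and 0.25 after quantile normalization. None of the related lists held a called gene: the median was 0.24 over 18 TOP class factors (8 at an unadjusted p under 0.05), 0.16 over 30 biogenesis factors (4 at that level) and 0.17 over 78 mitochondrial ribosomal protein genes (13 at that level). In the same comparison all 10 macrophage markers had a negative value (median -0.76; summed level 292 to 902 FPKM in wild-type against 169 to 686 FPKM in homozygous libraries), as did all 6 plasma cell markers (median -0.67; 2272 to 3889 and 1044 to 3106 FPKM). Erythroid markers summed to 58.2 to 257 and 41.0 to 90.6 FPKM, and all 10 proliferation markers had a positive value (median 0.27). No marker of these lists was at 0 throughout, and none was called. The part of these cells in the ribosomal protein levels was not tested.

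**Figure D4:**
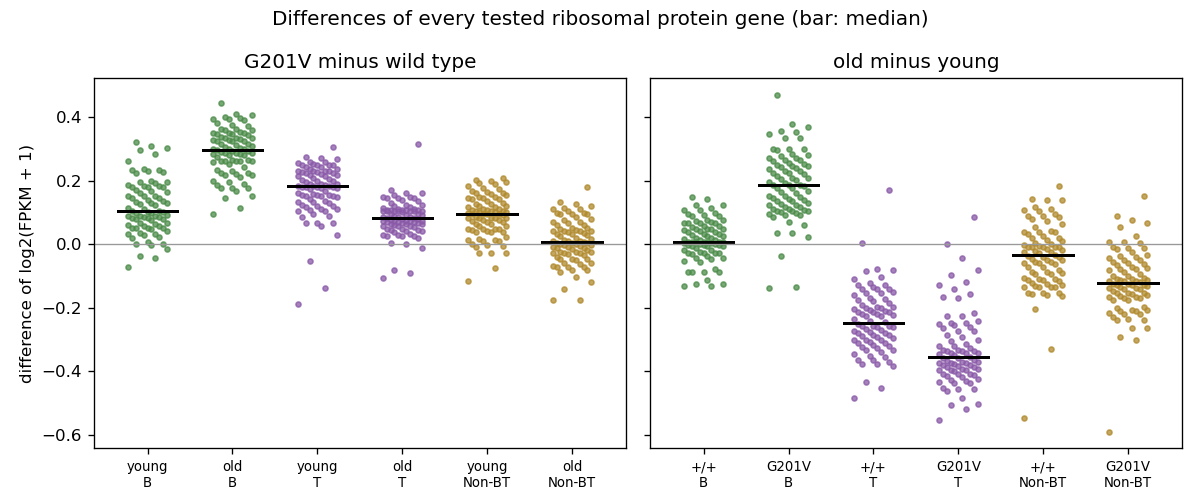
Differences of log2(FPKM + 1) of every tested ribosomal protein gene, for homozygous (G201V) minus wild type in each age and fraction (left) and for old minus young in each genotype and fraction (right). Points are genes and bars medians. In old B cells all 83 points are above 0 with a median of 0.30, and in T cells 82 of 84 are below 0 with age in each genotype. No point passed the test, and panels of a fraction share libraries.

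In young B cells, where 0.0734% of all genes were called, the median was 0.10 and 77 of 83 genes had a positive value. The smallest p belonged to Rps21 (264.7 ± 30.0 FPKM in wild-type against 330.3 ± 30.8 FPKM in homozygous animals, 0.32, adjusted p = 0.351), Rpl30 (474 ± 42.5 and 587 ± 79.6 FPKM, 0.30, adjusted p = 0.359) and Rpl22 (193 ± 19.4 and 239 ± 25.3 FPKM, 0.31, adjusted p = 0.382). Each of these 3 was above without overlap, as were 8 of 83 genes in all (2.19% of all genes). The median was -0.01 with the lower range of library numbers only and 0.20 after quantile normalization. In the same young libraries 1 of 10 macrophage markers was called lower, with a median of -1.65 over the list and summed levels of 862 to 1138 FPKM in wild-type against 231 to 411 FPKM in homozygous animals, and their part was not tested. The difference between the ages was tested as an interaction: no gene was called in B cells, 9 of 83 were at an unadjusted p under 0.05 (868 of all 12269 genes were), and the median was 0.19 (0.05 after quantile normalization).

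Averaged over the ages, a test added after these results were seen, 3 of 83 genes were higher in homozygous B cells, 3.61% called against 0.693% of all genes. They were Rpl17 (0.27, SE 0.0569, adjusted p = 0.0466), Rps24 (0.29, SE 0.0612, adjusted p = 0.0494) and Rps7 (0.27, SE 0.0581, adjusted p = 0.0495). Rps24 (chr14:24487125-24496959), mutated in some patients with Diamond-Blackfan anaemia, was at 425, 471, 454 and 404 FPKM in young wild-type, 474, 469, 550.2 and 498 FPKM in young homozygous, 474, 485 and 440.0 FPKM in old wild-type and 641, 589 and 607 FPKM in old homozygous B cells. Old homozygous animals were above all others, and the young groups overlapped. The calls were at the edge of the threshold: none of the 3 remained called when any one B library other than old homozygous replicate 2 was left out, the library with the Psmb9 label included. With the sample number across genotypes as a block, a pairing the labels do not give, 1 gene was called. In T and Non-BT cells, where 0.00758% and 1.18% of all genes were called in this test, no ribosomal protein gene was, with 0 at an unadjusted p under 0.05 in each and medians of 0.13 and 0.05.

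**Figure D5:**
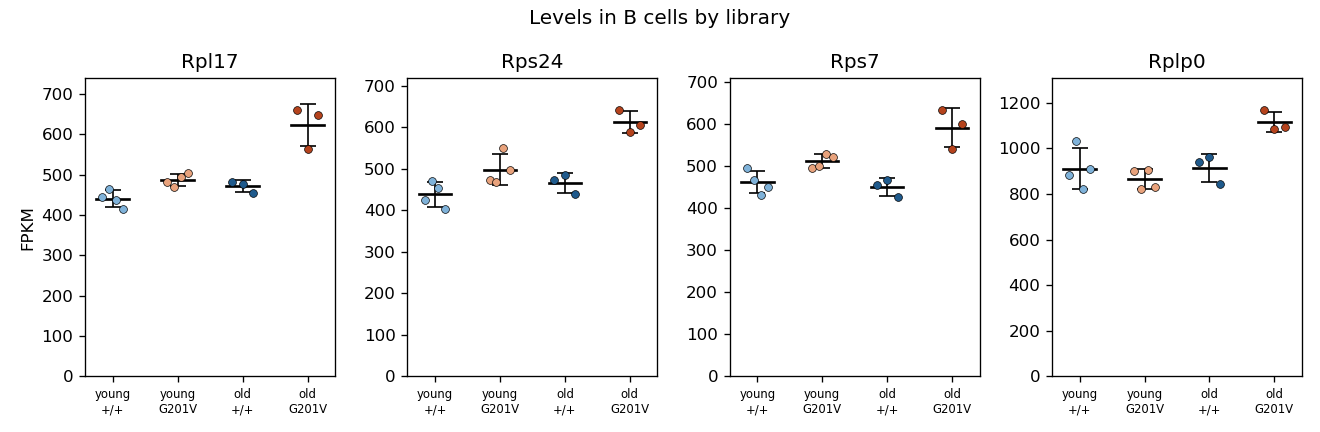
FPKM (vertical axes, from 0) of Rpl17, Rps24, Rps7 and Rplp0 in each B library by age and genotype. Points are libraries, long bars group means and whiskers 1 SD. The old homozygous libraries are the highest group in each panel, while for Rplp0 the young groups lie at 820 to 1031 and 823 to 903 FPKM.

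The spread was wider in T cells. The median SD of log2(FPKM + 1) over the 83 genes never at 0 was 0.32 in T cells, 0.17 in B cells and 0.14 in Non-BT cells (n = 14 each), and after each library's own median was subtracted it was 0.11, 0.09 and 0.09. The summed level was 82911, 68677, 93925 and 73137 FPKM in young wild-type, 84248, 68677, 93240.1 and 122363 FPKM in young homozygous, 82198, 54947 and 64087 FPKM in old wild-type and 77678, 55430 (55429.8) and 79702 FPKM in old homozygous T libraries. Young homozygous replicate 4 was the highest and the old animals numbered 2 the lowest. In the genotype comparison the median was 0.18 in young and 0.08 in old animals, and it was 0.0035 in young animals without that replicate 4 and -0.03 in old ones without old wild-type replicate 2. The smallest p in young T cells belonged to Rpl35 (1259 ± 225 and 1550 ± 234 FPKM, adjusted p = 0.698), Rpl4 (adjusted p = 0.699) and Rpl6 (adjusted p = 0.707), and in old T cells to Rps27l (147 ± 25.2 and 182 ± 11.1 FPKM, adjusted p = 1), with Rpl7l1 and Rps27a next.

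Old wild-type Non-BT libraries summed to 38936, 36957 and 38396 FPKM and old homozygous ones to 38097, 38123 and 38625 FPKM, with a median gene difference of 0.01 and 45 of 84 positive. The smallest p there belonged to Rpl27a (157 ± 6.59 and 139 ± 1.76 FPKM, -0.18, adjusted p = 0.926), Rps12 (adjusted p = 0.976) and Rpl4 (adjusted p = 0.986). In young animals, where 1.69% of all genes were called, the median was 0.09, and the smallest p belonged to Rps2 (525 ± 51.0 and 597.5 ± 38.8 FPKM, 0.19, adjusted p = 0.347), Rpsa (276 ± 26.7 and 308 ± 6.30 FPKM, adjusted p = 0.364) and Rplp0 (709.9 ± 66.1 and 795 ± 22.3 FPKM, adjusted p = 0.373).

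No ribosomal protein gene was called with age either, in any of the 6 comparisons of old with young animals, where 0 to 2.16% of all genes were called. The age comparisons of a genotype use the same libraries as the genotype comparisons. In T cells 82 of 84 genes had a lower mean in old animals in wild type (median -0.25, 0.227% of all genes called, 1 gene at an unadjusted p under 0.05, with 1402 of all 13193) and 82 of 84 in homozygous animals (median -0.36, 1.14% called, 5 genes at that level, with 1952 of all 13193). The size depended on the libraries used. For homozygous T cells it was -0.06 with the lower range of library numbers only, -0.20 without young replicate 4 and -0.20 without old replicate 2, and for wild-type T cells -0.14 without old replicate 2 and -0.45 after quantile normalization. In homozygous T cells 2 of 9 B cell markers and 4 of 6 plasma cell markers were called higher in old animals, and in wild-type T cells 0 of 9 and 0 of 6 (3 and 5 at an unadjusted p under 0.05). In homozygous animals the plasma cell markers summed to 252 to 380 FPKM (379.8) in young and 1722 to 4346 FPKM in old libraries. Their part in the lower values was not tested.

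In B cells the age difference had a median of 0.01 in wild-type animals (0% of all genes called, 0 of 83 at an unadjusted p under 0.05, with 768 of all 12269 genes) and 0.19 in homozygous animals (0.0163% called), where 80 of 83 genes were positive, 35 were at an unadjusted p under 0.05 (1751 of all 12269 genes) and 38 were above without overlap (5.57% of all genes). After quantile normalization the homozygous median was 0.0003. In Non-BT cells the medians were -0.04 in wild-type animals (0.199% called, 0 at that level, with 2160 of all 13587 genes) and -0.12 in homozygous animals (2.16% called, 6 at that level, with 2175 of all 13587 genes), with 75 of 84 negative and 38 below without overlap in the latter (8.54% of all genes). The wild-type Non-BT median was 0.13 with the lower range of library numbers only and 0.02 after scaling to the median ratio of other genes. Rps27l as a percentage of Rps27 in Non-BT cells was 9.36 ± 0.707 and 10.9 ± 0.572 in young wild-type and homozygous (n = 4 each), and 13.5 ± 4.78 and 13.7 ± 0.603 in old wild-type and homozygous animals (n = 3 each). The old homozygous values of 13.3 to 14.4% were all above the young homozygous values of 10.1 to 11.4%. In wild type the old values of 9.88 to 18.9% overlapped the young values of 8.70 to 10.3%. These ratios were not tested.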

How the data were processed

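Spleen RNA was extracted with the RNeasy micro kit and made into libraries with the SMART-Seq HT and Nextera XT kits, per the labels' protocols. The authors deposited FPKM per gene for each of 42 libraries; HISAT2 2.1.0, Cufflinks 2.2.1, Cuffdiff and build GRCm38.p4 are listed per the submitters' processing notes, and the annotation is not given in the sources used here. Neither kit marks the strand. Gene identifiers were matched to GENCODE M21 on GRCm38 (47305 of 47719 listed genes). No read numbers come with these values, so depth was estimated from the steps of FPKM times length in single-transcript genes (83.2 to 89.8% of low values lay within 0.15 of a whole step), and no counting intervals are given.

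Tests used limma 3.58.1 in R 4.3.3 on log2(FPKM + 1) with a mean-variance trend, as a two-sided test at a threshold of 0.05 on p-values adjusted over every tested gene by Benjamini and Hochberg. A gene entered a fit when 3 or more of its libraries reached 1 FPKM. The 14 libraries of a fraction were fitted together as 4 groups (for B, T and Non-BT cells 12269, 13193 and 13587 genes, with 83, 84 and 84 of the 86 ribosomal protein genes), and the 42 libraries as 12 groups for the fractions (15143 genes, 85 of the 86). A log2(FPKM + 1) difference understates changes of low genes. Fractions, ages and genotypes were taken from the titles. Replicates of a group correlated at 0.939 to 0.982 across genes in 54 pairs, and no pair was identical. Same-numbered old B samples of the genotypes deviated together (correlations of 0.17, 0.26 and 0.17). The labels do not pair these samples, and correlations of this size do not establish a pairing. No other genotype comparison had all its pairs over 0.1. The ribosomal protein genes and all lists were chosen with earlier results of these data known. Named were, by a rule, the genes with the smallest p in each genotype comparison (3 where none was called), the called genes with the largest differences between fractions, the 5 highest and 5 lowest by level, the stalk genes, the paralogs and a short list of genes with known roles, and for other lists up to 4 called genes per comparison. Rps14, Rps24, Rpl10 and others outside the rule were chosen after their values were seen. The alternatives were another pseudocount, no filter, quantile normalization, scaling to the median ratio of other genes and a replicate block. The block was the sample number within a fraction and the animal label across fractions. Further ones used only the groups compared or young wild-type libraries only. Left out were each library in turn, the libraries labelled Psmb9, the higher range of library numbers or, added after seeing the data, both old animals numbered 2. How reads were divided between near-identical genes is not given in the sources used here; 274 pseudogenes by symbol are listed, and their copies exceed 1% of the level of 17 of the 86 genes and 5% of that of 1. One gene of the lists is not reported here.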

Additional observations from a re-analysis of the deposited data

Results flagged for a closer look

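Chance marks about 1 in 20 groups when a sample is called far from the rest by its gap to the next value, and 10 of 286 groups of 4 libraries were marked here, over 48 named genes. In young homozygous Non-BT cells replicate 4 stood above the other 3 for Rps14 (1385.5 FPKM; others 1259.9 to 1273), Rps23 (489.6; others 451 to 456), Rps26 (521; others 461 to 468) and Rps4x (457; others 397 to 406). In young wild-type T cells replicate 3 stood above for Rpl22 (279 FPKM; others 217 to 227.5) and Rpl30 (817; others 662 to 688). Young homozygous T replicate 4 stood above for Rps6 (1177 FPKM; others 902 to 944). In young homozygous B cells replicate 2 was lowest for Rpl35 (1124 FPKM; others 1209 to 1222) and the one library with Rpl39l (0.203 FPKM; others listed at 0). Young wild-type B replicate 2 stood above for Rpsa (525 FPKM; others 429 to 438). The signed B minus T log2 difference of Rps14 was more positive in old than in young animals by 0.62, by limma over 42 libraries (adjusted p = 0.0284). In wild type the gap narrowed: mean levels were 1686 FPKM in B and 2406 FPKM in T cells of young animals. In old wild-type animals they were 1862 and 2041 FPKM.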

How the results depend on the processing

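Counts of calls between the fractions held within 1.5 times, except that B minus T fell from 43 to 20 with the lower range of library numbers only. Leaving out 1 animal gave 32 (without old wild-type replicate 1) to 55 (without young homozygous replicate 2) calls for B minus T, 81 to 82 for B minus Non-BT and 82 to 84 for T minus Non-BT. All genotype and age comparisons within an age or genotype gave 0 under every alternative. The 3 calls for genotype averaged over the ages in B cells became 1 with a pseudocount of 0.1, 0 without a filter on low values, 0 after quantile normalization, 7 after scaling to the median ratio of other genes, 0 without the Psmb9-labelled libraries, 0 with the lower range of library numbers, 12 without both old animals numbered 2, and 0 to 10 when 1 library was left out (10 without old homozygous replicate 2). The 1 call for the B minus T difference between ages became 0 without the filter, 7 after quantile normalization, 5 after the scaling, 0 with the lower range, 0 without the old animals numbered 2, and 0 to 9 when 1 animal was left out (9 without old wild-type replicate 1). The replicate block took 2 forms. Within a fraction it was the sample number across genotypes, a pairing the labels do not give, and the averaged B cell count was 1. In the fits of all 42 libraries it was the animal label. There the age difference count was 5, B minus T 48, B minus Non-BT 82 and T minus Non-BT 84. Same-numbered samples of the genotypes correlated over 0.1 in 11 of 21 pairs (-0.04 to 0.26). All 3 pairs were over 0.1 in old B cells alone, where the block by number gave 0 calls and 61 genes at an unadjusted p under 0.05. Same-labelled fractions correlated over 0.1 in 23 of 42 pairs (-0.02 to 0.37). Neither form of the block changed another count of calls by over 1.5 times. Rpl7l1 in old T cells went from 0.10 to -0.0017 without old homozygous replicate 3. The causes were not tested. Quantile normalization moved the median of all genes for B minus Non-BT from -0.06 to 0.17. Estimated depths of 9443960 to 25710500 fragments limit Rpl3l and Rpl39l and hardly the other genes.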
